A study of Mus musculus with 10 samples.

Results

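Interferon-induced antiviral effectors are proteins that vertebrate cells make in response to interferon and that block the copying, translation or release of viruses. The set described here has 10 genes, namely Ifit1, Ifit2, Ifit3, Oasl2, Isg15, Rsad2, Usp18, Bst2, Mx1 and Eif2ak2. Its members were every probe set on an Affymetrix array whose symbol in the probe annotation was one of these genes, which gave 13 of the 22690 probe sets in the table. The arrays came from a study of SWI/SNF, a chromatin remodelling complex, in primary mouse embryonic fibroblasts taken at E13.5 from a mixed C57BL/6 and 129 strain background. Expression was measured on 4 arrays of Brg1-/- cells, 3 of Snf5-/- cells and 3 of wild type cells. The labels give the same Cre retrovirus and the same selection in puromycin at 2.5 ug/ml for all 3 groups, wild type included. Brg1 (gene Smarca4) is an ATPase of the complex and Snf5 (gene Smarcb1) is a core subunit. Whether the arrays of a genotype represent different embryos or cultures is not given in the labels, and the p-values therefore cover the spread between arrays alone.

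Type I interferon binds a receptor of the subunits Ifnar1 and Ifnar2, whose Janus kinases activate transcription factors. Among these, Stat2 and Irf9 act in a complex that binds the interferon-stimulated response element (ISRE) in the promoters of many interferon-induced genes. The products then act at different steps of infection. Fibroblasts are a classical cell type in which interferon and its target genes are studied.

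The promoters are shown because the ISRE is the sequence through which these genes are known to respond. RefSeq promoter windows on GRCm38.p6, each running from 250 bases before to 50 bases after a transcription start, were held for 8 of the 10 members, and Usp18 and Mx1 were not listed. The windows were searched on both strands for GAAANNGAAA, a form of the ISRE core, with overlapping matches counted. Of all 32851 windows, 1131 (3.44%) held the motif at least 1 time and 74 (0.225%) held it 2 or more times. The stretches below are written along the gene's own strand, with the motif or its reverse complement in capitals. The Ifit1 stretch (chr19:34640769-34640828, plus strand) held matches that began 104 and 85 bases before the start, and the Ifit3 stretch (chr19:34583365-34583424, plus strand) held matches at 156 and 122 bases before it. The Isg15 stretch (chr4:156200856-156200915, minus strand) held 3 overlapping matches and the Bst2 stretch (chr8:71537565-71537624, minus strand) held 2. The Rsad2 stretch (chr12:26456538-26456597, minus strand) held 1 match, as did the Eif2ak2 stretch (chr17:78882535-78882564, minus strand), where it lay after the start.
Ifit1: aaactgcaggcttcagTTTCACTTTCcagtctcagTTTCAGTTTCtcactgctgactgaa
Ifit3: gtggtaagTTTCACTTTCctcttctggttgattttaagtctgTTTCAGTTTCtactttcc
Isg15: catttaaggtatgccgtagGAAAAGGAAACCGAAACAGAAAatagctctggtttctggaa
Bst2: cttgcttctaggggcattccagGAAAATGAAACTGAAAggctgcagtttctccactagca
Rsad2: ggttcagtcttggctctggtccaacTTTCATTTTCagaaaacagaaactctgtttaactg
Eif2ak2: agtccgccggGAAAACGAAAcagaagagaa
The windows of Ifit2 and Oasl2 held no match to these letters.

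Values are given as deposited, which is MAS5 intensity on a linear scale, and tested as log2 values after quantile normalization of the arrays. Both scales are printed because the deposited array medians differed between groups, with a mean of 156 ± 12.1 (SD, n = 4) in Brg1-/-, 173 ± 14.3 (n = 3) in Snf5-/- and 208 ± 22.6 (n = 3) in wild type. The median log2 change over the 8403 genes tested was 0.02 in both mutants after quantile normalization, and -0.47 in Brg1-/- and -0.27 in Snf5-/- on the deposited scale. Array background was taken as the highest of 27 bacterial control probe sets and lay between 26.7 and 57.4. A gene written as having risen or fallen passed an adjusted p of 0.05 in limma on both scales unless a scale is named. Smarca4 read 387 to 607 in Brg1-/- against 2424 to 3162 in Snf5-/- and 2275 to 3829 in wild type, and Smarcb1 read 279 to 331 in Snf5-/- against 808 to 1030.1 in Brg1-/- and 844 to 1119 in wild type. All 12 fibroblast markers examined were above background on every array. The same held for some of the epithelial, endothelial and lymphocyte markers examined. It therefore does not show that the cultures held fibroblasts only, or that fibroblast markers had equal levels in the groups.

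Most of the antiviral effectors were higher in Snf5-/- cells than in wild type, and a smaller group was higher in Brg1-/- cells. In Snf5-/- cells Ifit1, Ifit3, Oasl2, Rsad2, Usp18 and Bst2 rose, as did the probe set that Isg15 shares with a pseudogene. In Brg1-/- cells Ifit1, Oasl2, Rsad2, Usp18 and the Isg15 probe set rose. Ifit2, a close relative of Ifit1 and Ifit3, did not pass in Snf5-/- and was lower in Brg1-/- on the deposited scale. Mx1 stayed near background in all 3 groups. Both comparisons use the same 3 wild type arrays.

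**Figure D1:**
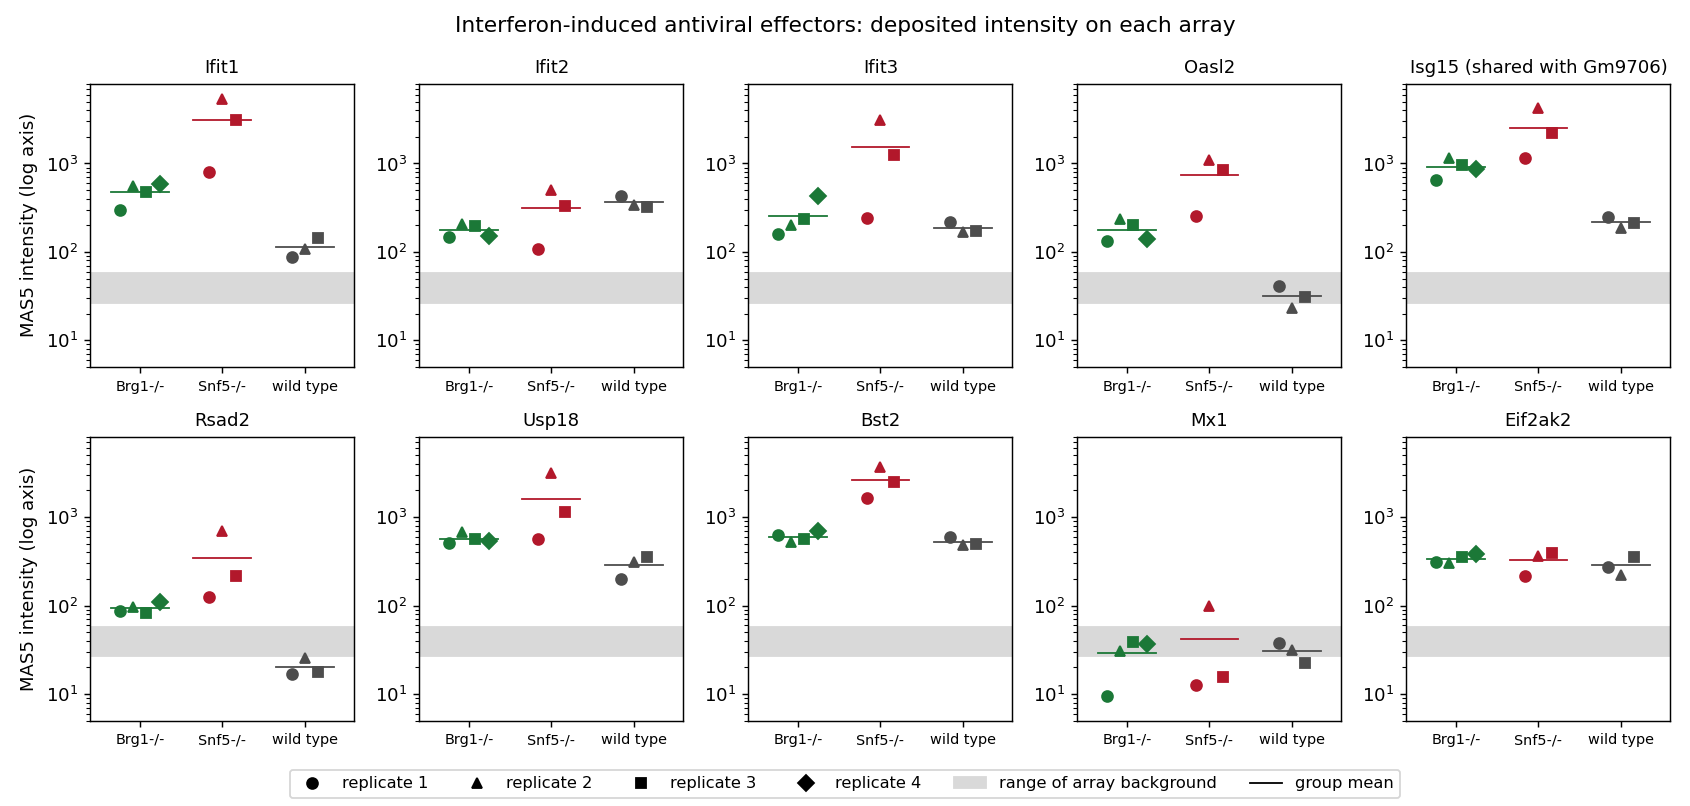
Deposited MAS5 intensity (log axis) of the leading probe set of each member on each array, with Brg1-/-, Snf5-/- and wild type from left to right; marker shape gives the replicate, the horizontal bar the group mean and the grey band the range of array background, 26.7 to 57.4. Ifit1 reads 795 to 5420.3 in Snf5-/- against 87.6 to 145.0 in wild type, and the 3 wild type arrays of Rsad2 lie at or below background.

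The Ifit proteins bind viral RNA and restrain its translation. Ifit1, which recognises RNA whose cap lacks the methyl marks of host mRNA, had intensities of 298, 559, 480.1 and 585 in Brg1-/-, 795, 5420.3 and 3119 in Snf5-/-, and 87.6, 107.5 and 145.0 in wild type. The groups did not overlap, and every Snf5-/- array lay above every Brg1-/- array. The change was 4.66 ± 0.54 (log2, SE, adjusted p = 0.000143) in Snf5-/- and 2.48 ± 0.50 (0.00342) in Brg1-/- on the quantile-normalized scale.

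Ifit3, a partner that stabilises the human IFIT1 complex, had intensities of 158, 201, 235 and 426 in Brg1-/-, 241, 3118 and 1233.8 in Snf5-/-, and 219, 167 and 174 in wild type. The lowest Snf5-/- array was little above the highest wild type array, whereas the highest Snf5-/- array was far above both. Ifit3 rose in Snf5-/- by 2.66 ± 0.67 (log2, SE, adjusted p = 0.0169 in limma), and without wild type replicate 2 or 3 the adjusted p was 0.0511. Brg1-/- and wild type overlapped on the deposited scale but not after quantile normalization, where the change of 0.79 ± 0.62 had adjusted p = 0.384.

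Ifit2 had intensities of 146.4, 204, 197 and 152 in Brg1-/-, 108, 504 and 328 in Snf5-/-, and 434, 339 and 321 in wild type. The Brg1-/- arrays all lay below the wild type arrays, and the Snf5-/- arrays spanned values below and above them. After quantile normalization Brg1-/- and wild type did not overlap either. The change in Snf5-/- was -0.20 ± 0.42 (log2, SE, adjusted p = 0.790), with a 95% interval from -1.10 to 0.71. In Brg1-/- it was -0.65 ± 0.39 (0.245) after quantile normalization and -1.06 ± 0.35 (0.0177) on the deposited scale, on which the median gene also moved down. Ifit2, Ifit3 and Ifit1 lie in that order on chromosome 19, with Ifit1bl1, Ifit3b and Ifit1bl2 between Ifit3 and Ifit1. Those 3 relatives had no probe set of their own, and whether their transcripts add to the Ifit1 and Ifit3 signals was not tested.

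Oasl2, an OAS-like protein with ubiquitin-like domains, had intensities of 134, 235, 199 and 141 in Brg1-/-, 257, 1098 and 853 in Snf5-/-, and 41.2, 23.5 and 31.1 in wild type. The 3 groups did not overlap on the deposited scale. Because 2 of the 3 wild type values were at or below background, the size of the change rests partly on signal that is not measured well. The fitted change was 4.58 ± 0.45 (log2, SE, adjusted p = 5.52e-05) in Snf5-/- and 2.87 ± 0.42 (0.000439) in Brg1-/-. With a pseudocount of 32 added to each intensity it was 3.51 and 1.95 and still passed, so Oasl2 rose but the size of its rise is uncertain.

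Isg15 is a ubiquitin-like protein that is attached to other proteins, and Usp18 is the protease that removes it and also dampens signalling at the interferon receptor. Isg15 was measured only by a probe set annotated to Isg15 on chromosome 4 and to the pseudogene Gm9706 on chromosome 17, and the 2 sources cannot be told apart. That probe set had intensities of 650.4, 1143, 967 and 870 in Brg1-/-, 1157, 4277 and 2212 in Snf5-/-, and 248, 187 and 211 in wild type. The groups did not overlap on the deposited scale. In a fit of single probe sets its change was 3.62 ± 0.37 (log2, SE, adjusted p = 0.000103) in Snf5-/- and 2.52 ± 0.35 (0.000345) in Brg1-/-.

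Usp18 had intensities of 509, 673, 559 and 531 in Brg1-/-, 561, 3152 and 1144 in Snf5-/-, and 201, 312 and 349 in wild type. Both mutants lay wholly above wild type, and the lowest Snf5-/- array fell within the Brg1-/- range. Usp18 rose in Snf5-/- by 2.40 ± 0.49 (log2, SE, adjusted p = 0.00555) and in Brg1-/- by 1.42 ± 0.46 (0.0358). The Brg1-/- call was lost when any single Brg1-/- array or wild type replicate 1 or 2 was left out, with adjusted p from 0.0557 to 0.153.

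Rsad2 encodes viperin, an enzyme that makes a nucleotide analogue which stops viral RNA synthesis. Its leading probe set had intensities of 86.7, 96.7, 82.2 and 108.9 in Brg1-/-, 125, 693 and 218 in Snf5-/-, and 16.6, 25.8 and 17.9 in wild type. All 3 wild type values were at or below background, so the differences are bounds. Against array background on the quantile-normalized scale, Rsad2 was at least 8.97-fold higher in Snf5-/- and at least 3.48-fold higher in Brg1-/-. These bounds were not tested. The limma fit on that scale gave a log2 change of 3.99 for Snf5-/- (adjusted p = 0.000453) and 2.62 for Brg1-/- (0.00275). It used the wild type values at or below background as they stand. On the deposited scale the bounds were lower, at least 7.60-fold in Snf5-/- and at least 2.66-fold in Brg1-/-. The other probe sets of Rsad2 were dim and did not pass the filter on low values. They read 40.5 to 83.4 in Brg1-/-, 40.9 to 423 in Snf5-/- and 4.5 to 102.4 in wild type, with only Snf5-/- replicate 2 above 300. Without a filter neither passed in limma. The probe set that read up to 102.4 in wild type overlapped it in both mutants (adjusted p = 0.553 in Snf5-/- and 0.786 in Brg1-/-). The other lay above wild type in Snf5-/- (0.0737) and overlapped it in Brg1-/- (0.221).

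Bst2 encodes tetherin, which holds budding virus particles at the cell surface. It had intensities of 624, 527, 561 and 689 in Brg1-/-, 1663, 3684 and 2464 in Snf5-/-, and 588, 480.1 and 502 in wild type. Every Snf5-/- array was above every other array, whereas Brg1-/- and wild type overlapped on the deposited scale but not after quantile normalization. Bst2 rose in Snf5-/- by 2.51 ± 0.24 (log2, SE, adjusted p = 4.47e-05). In Brg1-/- the change was 0.66 ± 0.23 (0.0457) after quantile normalization and 0.19 ± 0.22 (0.473) on the deposited scale.

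Mx1 is a dynamin-like GTPase that traps viral ribonucleoproteins, and RefSeq lists the mouse reference gene as a transcribed pseudogene. Its intensities were 9.6, 30.5, 38.6 and 36.5 in Brg1-/-, 12.6, 97.7 and 15.4 in Snf5-/-, and 37.3, 31.8 and 22.1 in wild type. Values were at or below background on all 4 Brg1-/- arrays, 2 Snf5-/- arrays and 1 wild type array, and only Snf5-/- replicate 2 stood clear of the others. Mx1 reached the filter level on 0 of 10 arrays and was not tested as a gene. Without a filter, limma gave adjusted p = 0.912 in Brg1-/- and 0.966 in Snf5-/- against wild type.

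Eif2ak2 encodes PKR, a kinase that senses double-stranded RNA and halts translation by phosphorylating eIF2 alpha. Its brighter probe set read 313, 305, 357 and 386 in Brg1-/-, 216, 367 and 392 in Snf5-/-, and 274, 224 and 353 in wild type. The groups overlapped on the deposited scale, whereas Brg1-/- and wild type did not overlap after quantile normalization. The change was 0.43 ± 0.23 (log2, SE, adjusted p = 0.219) in Snf5-/-. In Brg1-/- it was 0.70 ± 0.21 (0.0294) after quantile normalization and 0.28 ± 0.22 (0.302) on the deposited scale. The second probe set read 209 to 325 in Brg1-/-, 246 to 538 in Snf5-/- and 216 to 293 in wild type, and passed in neither mutant, with adjusted p = 0.257 in Brg1-/- and 0.146 in Snf5-/-.

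Of the 10 members, 8 were tested as genes, and Isg15 and Mx1 were not. In Snf5-/- 6 of the 8 were higher and 0 lower, where 10.6% of all tested genes were higher and 7.47% lower. The deposited scale gave the same 6 and 0, against backgrounds of 3.15% higher and 16.1% lower. The leading probe sets of 7 members, Isg15 included, lay wholly above wild type on the deposited scale, a pattern that 4.99% of all genes showed, and 29.7% lay wholly below. The median change of the 8 was 2.59 after quantile normalization, also with Rsad2 at its bound, and 2.32 on the deposited scale. Oasl2 and Rsad2 reached the filter level on mutant arrays only and so entered the test because they were high there. Ifit1 reached it in wild type on replicate 3 alone, short of the 3 arrays needed, so it too entered through the mutants. The counts, here and in Brg1-/-, describe these genes and are no test of the set.

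In Brg1-/- 6 of the 8 were higher and 0 lower after quantile normalization, where 14.9% of all tested genes were higher and 12.9% lower. On the deposited scale 4 were higher and 1 lower, against 3.43% and 44.1% of all genes. The arrays of 5 members, Isg15 included, lay wholly above wild type, which 3.86% of genes did, and those of Ifit2 lay wholly below, which 49.2% of genes did. Since close to that share of all genes was lower on the deposited scale, nothing is read from the fall of Ifit2 there. The median change of the 8 was 1.10 after quantile normalization, also with Rsad2 at its bound, and 0.69 on the deposited scale. With single arrays left out the count of members passing was 3 to 7. It was 3 without wild type replicate 1 or 2 or without Brg1-/- replicate 2, 3 or 4. It was 7 without Snf5-/- replicate 1, where 6 members were higher and Ifit2 was lower after quantile normalization. Of all tested genes, 1275 were higher and 1105 lower in that run.

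**Figure D2:**
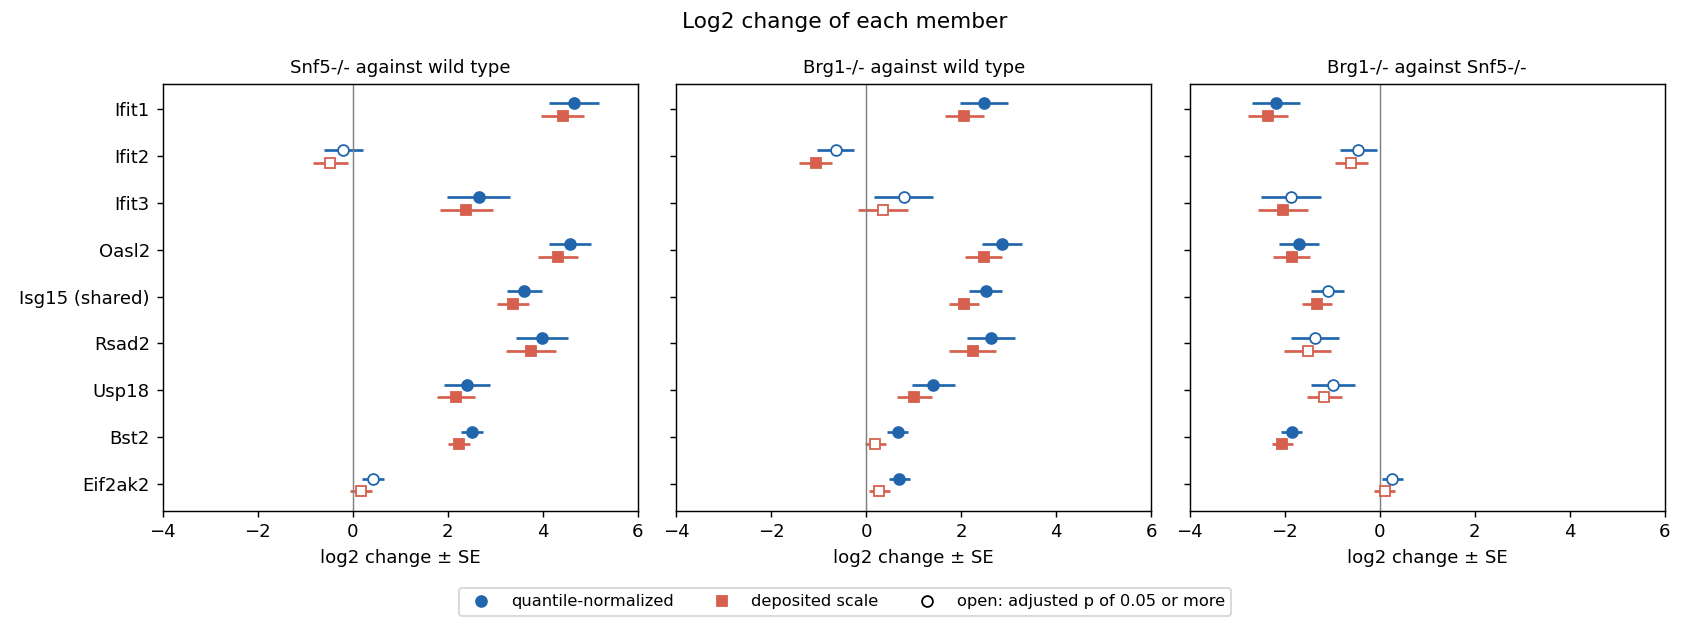
Log2 change with its SE for each member, with panels for Snf5-/- against wild type, for Brg1-/- against wild type and for the mutants against each other (Brg1-/- minus Snf5-/-), on the quantile-normalized scale (circles) and the deposited scale (squares); open symbols had an adjusted p of 0.05 or more. Ifit1 reads 4.66 in Snf5-/- and 2.48 in Brg1-/-, the points of Oasl2 and Rsad2 against wild type rest on wild type values at or below background, and 3 members were lower in Brg1-/- than in Snf5-/- on both scales.

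Set directly against Snf5-/- cells, Brg1-/- cells had lower Bst2, Ifit1 and Oasl2. Bst2 was lower by a log2 change of -1.85 ± 0.23 (SE, limma adjusted p = 0.00166), Ifit1 by -2.18 ± 0.50 (0.0331) and Oasl2 by -1.71 ± 0.42 (0.0417). After quantile normalization these 3 of 8 members were lower and 0 higher, where 2.27% of all genes were lower and 2.09% higher. On the deposited scale Ifit3 joined them, so that 4 were lower and 0 higher, against 3.93% and 0.369% of all genes. On the deposited scale Brg1-/- arrays lay wholly below Snf5-/- arrays for Ifit1, Oasl2, Rsad2, Bst2 and the Isg15 probe set, where 20.6% of genes lay wholly below and 1.74% wholly above. After quantile normalization the groups overlapped for Oasl2 and the Isg15 probe set.

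The difference of Bst2 passed in every alternative run, whereas those of Ifit1 and Oasl2 did not. Without Snf5-/- replicate 2 the adjusted p was 0.0800 for Ifit1 and 0.129 for Oasl2. Oasl2 also lost its call without any other single array except Snf5-/- replicate 1. Bst2 alone passed without wild type replicate 2, Snf5-/- replicate 2 or 3, or Brg1-/- replicate 1, 2 or 3, and 5 members passed without Snf5-/- replicate 1. Rsad2 differed by -1.37 ± 0.51 (log2, SE, adjusted p = 0.149), with a 95% interval from -2.48 to -0.26, and Usp18 by -0.98 ± 0.46 (0.231), with an interval from -1.97 to 0.01. For Ifit3 the interval ran from -3.23 to -0.51 (adjusted p = 0.114) and for Ifit2 from -1.30 to 0.40 (0.543). For Eif2ak2 it ran from -0.20 to 0.73 (0.508). These intervals are wide, so a p that missed the threshold does not show equal levels in the mutants.

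The Snf5-/- arrays differed among themselves far more for these genes than for most genes. The median SD between Snf5-/- arrays was 1.14 (log2) over the leading probe sets of 9 members, with a range from 0.41 to 1.86, and 0.21 over all tested genes. The corresponding medians were 0.29 and 0.19 in Brg1-/-, and 0.33 and 0.15 in wild type. Replicate 2 was the highest Snf5-/- array for 12 of 13 probe sets, and 8 of 9 leading probe sets ran in the order replicate 2, replicate 3, replicate 1. The highest Snf5-/- array exceeded the lowest 12.9 times for Ifit3, 6.81 times for Ifit1 and 5.61 times for Usp18, but 2.22 times for Bst2 and 1.82 times for Eif2ak2.

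**Figure D3:**
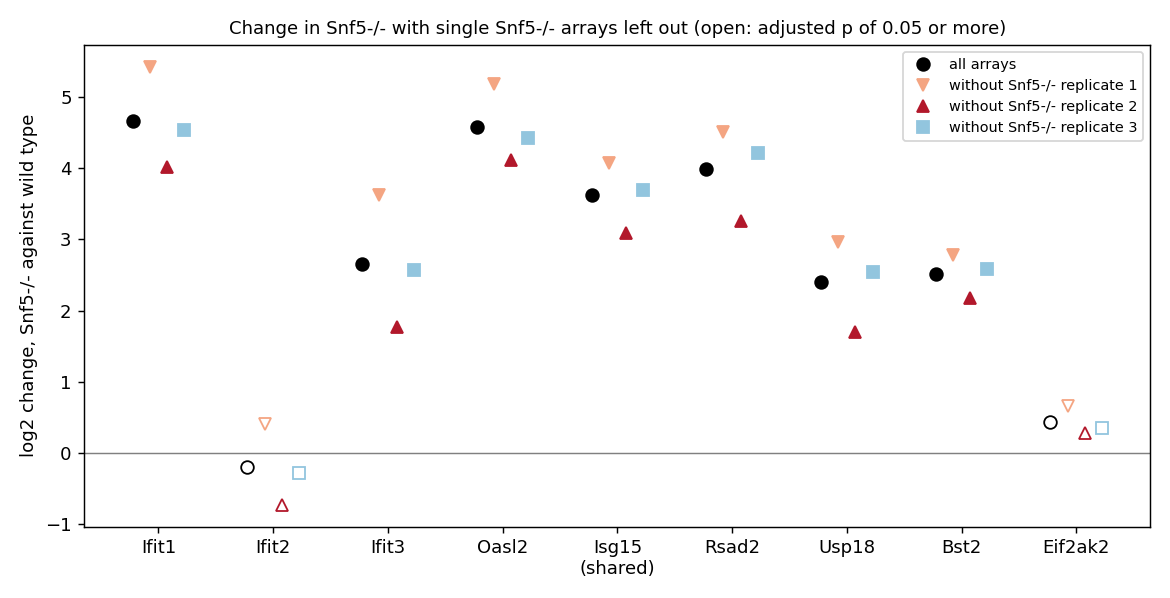
Log2 change of each member in Snf5-/- against wild type on the quantile-normalized scale, with all arrays and without each Snf5-/- array in turn; open symbols had an adjusted p of 0.05 or more. Leaving out replicate 2 lowers the change of Ifit3 to 1.77, against 2.66 with all arrays, and all members that passed with all arrays pass there too.

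Markers of macrophages and other leukocytes were also highest in Snf5-/- replicate 2. The summed intensity of 17 such markers was 2690 to 5634 in Brg1-/-, 3313, 12095 and 3968 in Snf5-/- replicates 1, 2 and 3, and 4288, 7307 and 4514 in wild type replicates 1, 2 and 3. Of the 13 markers tested, the complement genes C1qb and C1qc were higher in Snf5-/- (1.85 and 1.73, log2, limma adjusted p = 0.00732 and 0.0497) and in Brg1-/- (1.39 and 1.58, 0.0146 and 0.0395). That is 2 of 13 in each mutant, near the share of all tested genes that were higher. Both genes reached the filter level on mutant arrays only and entered the test because they were high there, so this count is no test of the markers. The median change of the 13 was 0.41 in Snf5-/- and 0.0053 in Brg1-/-. Laptm5 was lower in Brg1-/- on the deposited scale (-0.59, 0.0305), as were 44.1% of all genes, so nothing is read from it. None of the 17 was listed at 0, but no deposited value of any gene was, so this does not show that a marker was expressed. The number of markers at or below background was 5, 1 and 3 on Snf5-/- replicates 1, 2 and 3. The pan-leukocyte gene Ptprc read 38.4 to 67.9 in Brg1-/-, 49.3, 129 and 70.0 in Snf5-/-, and 104.9, 125 and 52.9 in wild type. In bulk RNA a change in the number of cells of a type and a change in RNA per cell cannot be told apart. The part of such cells in the high member values of replicate 2 was not tested.

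Without Snf5-/- replicate 2 the same 6 members passed in Snf5-/- against wild type. The log2 changes were then 4.02 for Ifit1 (adjusted p = 0.000161), 1.77 for Ifit3 (0.0299), 4.12 for Oasl2 (0.000129), 3.25 for Rsad2 (0.000847), 1.69 for Usp18 (0.00340) and 2.17 for Bst2 (1.92e-05). The Isg15 probe set changed by 3.09 (4.29e-05). The sign of Ifit2 depended on the arrays, with a change of -0.72 (0.154) without replicate 2 and 0.41 (0.344) without replicate 1.

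Other genes of the pathway were examined in 9 lists by role, with 91 genes, of which 71 had a probe set of their own and 50 were tested. In Snf5-/- 23 of the 50 were higher and 1 lower after quantile normalization (16 and 2 on the deposited scale), with a median change of 0.50. In Brg1-/- 21 were higher and 2 lower (12 and 12 on the deposited scale), with a median of 0.37. These counts stand against the same backgrounds as those of the members. They include genes that reached the filter level on mutant arrays only, such as Trim30a and Parp14, and are likewise no test of the lists. After quantile normalization 10.6% of all genes were higher and 7.47% lower in Snf5-/-, and 14.9% higher and 12.9% lower in Brg1-/-. On the deposited scale 3.15% were higher and 16.1% lower in Snf5-/-, and 3.43% higher and 44.1% lower in Brg1-/-. Without Snf5-/- replicate 2 the Snf5-/- counts were 21 and 2.

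The interferons themselves gave no tested value. Of the 8 ligand genes on the array 0 passed the filter, and Ifnb1 read 22.6 to 63.6 in Brg1-/-, 36.0 to 65.6 in Snf5-/- and 11.6 to 83.8 in wild type. Among 7 receptor and Janus kinase genes, Ifnar1 changed by 0.66 ± 0.21 (log2, SE, limma adjusted p = 0.0434) in Snf5-/- and 0.62 ± 0.19 (0.0309) in Brg1-/- after quantile normalization, and passed in neither on the deposited scale. The signal-transducing kinase Jak1 changed by 0.43 ± 0.12 (0.0178) in Brg1-/- after quantile normalization, and the deposited scale gave 0.307. Jak2 changed by 0.51 ± 0.17 (0.0528) in Snf5-/-. Ifngr2, a subunit of the receptor for interferon gamma, changed by -0.53 ± 0.18 (0.0622) in Snf5-/- and -0.46 ± 0.17 (0.0644) in Brg1-/-, and passed lower on the deposited scale in Snf5-/- (-0.82, 0.0119) and Brg1-/- (-0.91, 0.00138). Ifnar2, the partner of Ifnar1, passed lower in Brg1-/- on that scale (-0.86, 0.00215). On it 0 of the 7 were higher and 3 lower in Brg1-/-, where 44.1% of all genes were lower.

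Of the 6 transcription factors tested, 4 were higher in Snf5-/- and 3 in Brg1-/- after quantile normalization. Irf9, the DNA-binding partner of Stat2, read 361 to 456 in Brg1-/-, 426 to 648 in Snf5-/- and 164 to 245 in wild type. Neither mutant overlapped wild type, and Irf9 rose by 1.63 ± 0.17 (log2, SE, adjusted p = 7.48e-05) in Snf5-/- and 1.38 ± 0.16 (7.88e-05) in Brg1-/-. Irf7, which amplifies interferon production, rose by 2.09 ± 0.30 (0.000638) in Snf5-/- and 1.25 ± 0.28 (0.00609) in Brg1-/-. Irf1 and Stat2 rose in Snf5-/- by 1.12 ± 0.21 (0.00356) and 1.68 ± 0.38 (0.0101). In Brg1-/- Irf1 passed only after quantile normalization, and Stat2 changed by 0.98 ± 0.36 (0.0580).

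Among sensors and adaptors 1 of 6 rose and 1 fell in Snf5-/-. Ifih1, a sensor of long double-stranded RNA, read 183 to 292 in Brg1-/-, 381 to 942 in Snf5-/- and 140 to 208 in wild type, and rose in Snf5-/- by 2.11 ± 0.30 (log2, SE, adjusted p = 0.000608). Mavs, the mitochondrial adaptor on which Ifih1 acts, read 333 to 425 in Brg1-/-, 425 to 492.9 in Snf5-/- and 693 to 873 in wild type. It was lower in both mutants, with adjusted p = 0.00693 in Brg1-/- and 0.0250 in Snf5-/-. The Snf5-/- call of Mavs was lost without wild type replicate 2 (0.0617), wild type replicate 3 (0.109) or Snf5-/- replicate 3 (0.0642). The other genes of smallest p in Snf5-/- were the RNA sensor Tlr3, with a change of 1.24 ± 0.41 (0.0537), and the kinase Tbk1, with 0.43 ± 0.17 (0.107).

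Of the enzymes that attach Isg15, none passed on both scales in either mutant. Trim25, a ligase of this pathway, changed by 0.64 ± 0.15 (log2, SE, adjusted p = 0.0124) in Snf5-/- after quantile normalization, but the deposited scale gave 0.237. Uba7, the activating enzyme, changed by -0.07 ± 0.31 (0.897) in Snf5-/-. Ube2l6, the conjugating enzyme, read 19.3 to 60.1 in Brg1-/-, 80.3 to 111.6 in Snf5-/- and 43.8 to 70.0 in wild type and did not pass the filter. Of the OAS family, which makes the activator of RNase L, Oas1a rose by 2.05 ± 0.33 (0.00134) in Snf5-/- and 1.44 ± 0.31 (0.00456) in Brg1-/-, and Oasl1 changed by 0.73 ± 0.39 (0.229) in Snf5-/-.

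Of the 15 other effectors tested, 12 were higher in Snf5-/- and 13 in Brg1-/- after quantile normalization, and 9 and 8 on the deposited scale. Among those higher in both mutants, Trim30a, Nmi, Parp14 and Isg20 reached the filter level on mutant arrays only. They entered the test because they were high there, so these counts are no test of the list. Rtp4, an interferon-induced inhibitor of flavivirus replication, read 601 to 903 in Brg1-/-, 866 to 2230 in Snf5-/- and 129 to 160.0 in wild type. It rose by 3.53 ± 0.30 (log2, SE, adjusted p = 2.35e-05) in Snf5-/- and 2.72 ± 0.28 (3.79e-05) in Brg1-/-. The ADP-ribosyltransferase family members Parp12 and Parp9 rose by 2.52 ± 0.23 and 2.52 ± 0.26 in Snf5-/-, and by 1.52 ± 0.21 and 1.71 ± 0.24 in Brg1-/-. Trim30a rose by 2.80 ± 0.35 in Snf5-/- and 1.62 ± 0.33 in Brg1-/-.

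Of 5 feedback inhibitors of cytokine signalling tested, only Socs3 in Brg1-/- passed on both scales. Socs3 rose there by 1.03 ± 0.24 (log2, SE, adjusted p = 0.00704), and Ptpn2 changed in Snf5-/- by 0.72 ± 0.17 (0.0112) after quantile normalization only. The phosphatases Ptpn1 and Ptpn6 changed by 0.26 ± 0.13 (0.177) and -0.35 ± 0.45 (0.631) in Snf5-/-. Among the other eIF2 alpha kinases and their targets, Eif2ak4, which responds to amino acid shortage, rose in Snf5-/- by 1.05 ± 0.26 (0.0147). The transcription factor Atf4 changed there by 0.40 ± 0.10 (0.0199) after quantile normalization only, Eif2ak3 by 0.24 ± 0.16 (0.316) and Trib3 by 0.34 ± 0.29 (0.473). Ddit3, a stress-induced transcription factor, fell in Brg1-/- by 0.60 ± 0.14 on the log2 scale (0.00672).

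**Figure D4:**
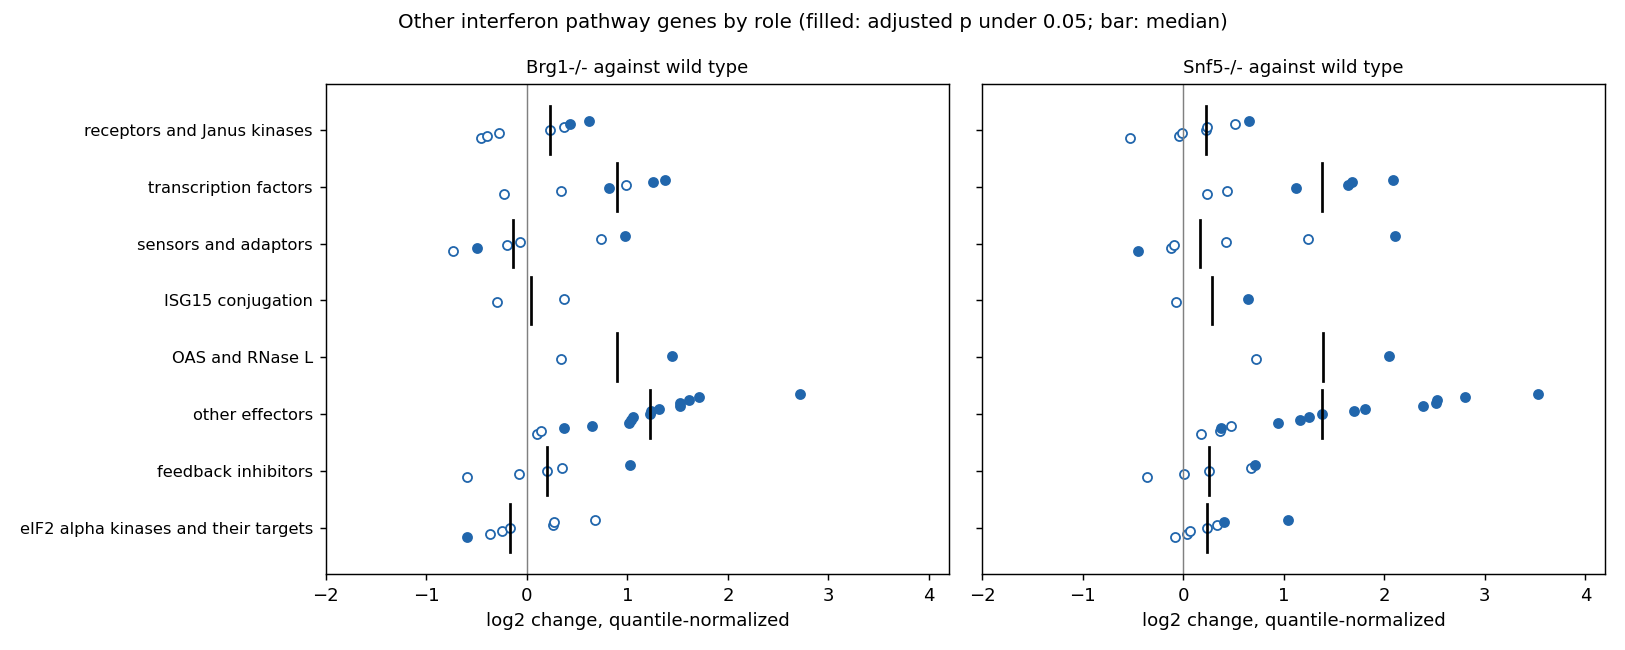
Log2 change of the other interferon pathway genes by role on the quantile-normalized scale, in Brg1-/- against wild type on the left and Snf5-/- against wild type on the right; each point is a gene, filled where adjusted p was under 0.05, and the bar is the list's median. All 15 other effectors lie to the right of 0 in both mutants on this scale, although on the deposited scale Pml in both and Samhd1 and Tdrd7 in Brg1-/- turn negative, and receptors and kinases lie on both sides of 0.

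A median profile over the 10 arrays was taken from the 8 members tested as genes, without Isg15 and Mx1. It was the median of their log2 values, each centred on its own mean. It was 2.75 on Snf5-/- replicate 2 and 0.35 on Snf5-/- replicate 1, between -0.10 and 0.33 on Brg1-/- arrays, and between -1.52 and -0.996 on wild type arrays. Usp18 lay closest to that profile, with a root mean square distance of 0.27, and Ifit2 lay farthest, at 1.18. The others lay at 0.45 (Bst2), 0.53 (Ifit3), 0.64 (Rsad2), 0.81 (Ifit1), 0.87 (Oasl2) and 1.01 (Eif2ak2), so not all members followed it closely. Among the other 8395 genes, whose median distance was 1.22, the 6 closest were Parp14 (0.25), Irgm2 (0.32), Igtp (0.33), Gbp2 (0.38), Parp12 (0.38) and Irf7 (0.39). Irgm2 and Igtp are immunity-related GTPases and Gbp2 is a guanylate-binding protein. This likeness is a description over 10 arrays of 3 groups and has no test.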

How the data were processed

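RNA of 10 samples was labelled with biotin and hybridised to Affymetrix arrays, per the labels. The deposited values are MAS5 intensity per probe set, per the submitters' processing notes; its version, scaling and filters are not given in the sources used here. Quantile normalization ran over all 22690 probe sets, and log2 was taken with no pseudocount. Probe sets with 1 gene symbol numbered 20380, with 691 carrying several and 1555 none; 64 were controls. The probe set of highest mean log2 stood for a gene, and genes that reached the 40th percentile of an array on 3 or more arrays were kept. Each gene was fitted with limma 3.58.1 in R 4.3.3 (lmFit, eBayes with trend, 3 group means, 7 residual degrees of freedom), two-sided, with Benjamini-Hochberg adjustment over 8403 genes. The fit was tested on simulated data. A fold is a bound if no array of the dimmer group exceeded its background. Alternatives were the deposited, median-centred and pseudocount scales, other filters, every probe set on its own, no trend, a replicate block and leaving out each array. The number of arrays limits the precision. Named genes were all members, the 2 targeted genes, up to 4 genes of smallest adjusted p in Snf5-/- of each list, the measured genes of the Isg15 conjugation list, and the 6 closest profiles. Ifnb1, Ifnar2, Ddit3, Ptprc, Laptm5, C1qb, C1qc, Pml, Samhd1, Tdrd7, Nmi and Isg20 were added after their values were seen. The members and lists were chosen with earlier results of these data known.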

Additional observations from a re-analysis of the deposited data

Results flagged for a closer look

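Within the 4 Brg1-/- arrays, 13 probe sets of the members were examined for an array far from the other 3, and chance marks about 1 such group in 20. Usp18 on Brg1-/- replicate 2 and Mx1 on Brg1-/- replicate 1 were flagged. Their outlier ratios were 0.918 and 0.896, against a critical value of 0.829. These ratios were not taken on the deposited intensities, on which both arrays stood less far apart. There Usp18 read 673, with the other arrays at 509 to 559. Mx1 read 9.6 there, with the others at 30.5 to 38.6, all of them at or below background. The effect of Brg1 loss and the effect of Snf5 loss, both against the same wild type arrays, differed by the direct limma contrast for 3 members. The effect in Brg1-/- minus that in Snf5-/- was -2.18 for Ifit1, -1.71 for Oasl2 and -1.85 for Bst2 (log2), and the Brg1-/- arrays were lower than all Snf5-/- arrays for each of them on the deposited scale.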

How the results depend on the processing

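The 30 log2 changes of members were recomputed under up to 18 alternatives, which gave 528 values. Of these, 468 kept direction and side of the threshold, 49 kept direction and no longer passed, 8 newly passed and 3 turned sign. With single arrays left out, the change of Ifit2 in Snf5-/- against wild type was -0.72 to 0.41, positive without Snf5-/- replicate 1. In Brg1-/- against Snf5-/- that of Ifit2 was -1.06 to 0.079 and that of the second Eif2ak2 probe set -0.54 to 0.16, both positive without Snf5-/- replicate 2. None of the 3 sign changes passed, and the cause was not tested. In Snf5-/- against wild type the number of members passing was 5 to 6 with single arrays left out, and that of other pathway genes 18 to 24. In Brg1-/- against wild type these were 3 to 7 and 18 to 26. In Brg1-/- against Snf5-/- they were 1 to 5 and 0 to 11, without an intensity trend 1 and 0, and on the deposited scale 9 other pathway genes passed. The genes passing over the whole array numbered 2330 in Brg1-/- and 3990 on the deposited scale. Bst2 in Brg1-/- lost its call under 14 of 18 alternatives, Usp18 under 8 and Eif2ak2 under 6. The replicate numbers showed no pairing (r from -0.073 to 0.11 over 9 same-number pairs), and with the number as a block 6, 5 and 2 members passed in the 3 comparisons. Signal near background limits Mx1, Rsad2 and Oasl2.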
